A study of Mus musculus with 13 samples.

Results

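Oct4-GFP-positive colonies, picked during chemical reprogramming of mouse embryonic fibroblasts (MEF), were compared with embryonic stem cells (ESC) of line R1. The colonies had 1 library and were set against ESC replicate 3, the ESC library taken to be of the same set of columns. Sets were told apart by the value filled in for genes without reads, and the labels do not name them. Values were RPKM, reads per kilobase of gene in a library scaled for its reads, and each difference is the colonies minus ESC replicate 3 on the log2(RPKM + 1) scale. Genes with a symbol of their own and 5 RPKM or more in the higher of the libraries were compared, which gave 3035 of 15176 genes in 2 of 13 libraries. A difference of 1 or more counted as higher in the colonies and one of -1 or less as lower. With 1 library a side, no test was possible and no difference has a replicate check on the colony side. ESC replicates 1 and 2 served to show whether the colonies lay outside the range of ESC libraries. At the limit of 5 RPKM, Supt4h1 was just inside with 5.001 RPKM in the colonies and 3.713 RPKM in ESC replicate 3, and Ampd2 was just outside with 4.507 RPKM in the colonies and a value that lay just under the limit in ESC replicate 3.

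The study followed fibroblasts under small-molecule treatment to chemically induced pluripotent stem cell (CiPSC) lines. The colonies and an earlier kind of sample, GFP-positive clusters (1 library), came from fibroblasts of strain C57xICR, carried the Oct4-GFP reporter and were treated with the combination labelled VC6TF+Z. GFP-negative cells (2 libraries) had the combination VC6TF, and CiPSC lines 6 and 11 are labelled VC6TFMB+Z. Untreated MEF (3 libraries) were C57xICR cells grown in DMEM with serum. R1 is an established ESC line of strain 129, untreated and kept on feeder layers of mitomycin C-treated fibroblasts, so the colonies and the ESC differed in strain, culture and history as well as in cell state. The GFP-positive and GFP-negative cells were picked from cultures, and the labels give no other purification.

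An early mouse embryo sets aside an epiblast, the source of ESC, and a primitive endoderm, which lines it and later forms parts of the yolk sac. Epiblast cells and ESC are held in their state by the transcription factors Pou5f1 (Oct4), Sox2 and Nanog and make the signals Fgf4 and Nodal. Primitive endoderm cells use Gata6, Gata4 and Foxa2 and lay down a thick basement membrane of laminin and type IV collagen.

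The column set of the colonies, MEF replicate 3 and ESC replicate 3 held a fill value of 0.001 where the set of MEF replicates 1 and 2, the GFP-negative cells, the clusters and ESC replicates 1 and 2 held 0. In both sets the length in the RPKM was the whole gene with its introns, so that intron-rich genes have low values, whereas the CiPSC lines and ESC replicate 4 were scaled to exons and were set only against each other. Depth recovered from the steps of the low values was 10.00 M reads in the colonies and 9.98 M reads in ESC replicate 3, within 8.88 to 17.65 M reads over the 10 gene-span libraries. The sets did not share a scale. ESC replicate 3 lay above ESC replicate 1 by a median of 0.57 and above ESC replicate 2 by 0.58 over the compared genes, against 0.02 between ESC replicates 1 and 2. Of the genes at 5 RPKM or more in either library, 31.9% were higher and 4.52% lower by 1 or more in ESC replicate 3 than in ESC replicate 1, and 31.3% were higher and 5.81% lower than in ESC replicate 2. Between ESC replicates 1 and 2, 6.02% were higher and 8.72% lower in ESC replicate 1. The comparison therefore stayed within the set, and ESC replicates 1 and 2 are given beside it.

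Regulatory sequence is shown for a gene at each end of the comparison: Nanog, which had the most negative difference of the named genes, and the collagen pair Col4a1 and Col4a2, which were both higher. Each line gives a RefSeq promoter window of 300 bases on GRCm38.p6, read 5′ to 3′ on the gene's strand. The Nanog window is chr6:122707239-122707538 on the plus strand. Capitals mark the 14 bases from -75 to -62 relative to the start site that match TTTGCAT, an octamer-type sequence, followed after 1 base of any kind by ACAATG, a Sox-type one.
Nanog: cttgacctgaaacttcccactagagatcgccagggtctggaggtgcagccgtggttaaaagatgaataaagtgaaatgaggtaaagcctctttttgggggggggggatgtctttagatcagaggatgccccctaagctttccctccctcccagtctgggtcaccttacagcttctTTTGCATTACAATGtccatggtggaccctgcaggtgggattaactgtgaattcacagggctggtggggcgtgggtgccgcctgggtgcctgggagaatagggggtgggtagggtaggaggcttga
Searched on both strands, that combination stood in 2 of 32851 RefSeq promoter windows (0.00609%). Nanog has 2 listed windows, and whether the second match is its other window is not given here. The octamer-type part read on the other strand, ATGCAAA, stood in 4.63% of the windows. The Sox-type part, ACAATG, stood in 12.6%. Col4a1 (chr8:11312777-11313076, minus strand) and Col4a2 (chr8:11312555-11312854, plus strand) are transcribed in opposite directions from start sites 21 bases apart. The Col4a2 start (11312805) lies below the Col4a1 start (11312826), so the annotated 5′ ends of the genes overlap. Capitals mark the 78 bases that their windows share on opposite strands.
Col4a1: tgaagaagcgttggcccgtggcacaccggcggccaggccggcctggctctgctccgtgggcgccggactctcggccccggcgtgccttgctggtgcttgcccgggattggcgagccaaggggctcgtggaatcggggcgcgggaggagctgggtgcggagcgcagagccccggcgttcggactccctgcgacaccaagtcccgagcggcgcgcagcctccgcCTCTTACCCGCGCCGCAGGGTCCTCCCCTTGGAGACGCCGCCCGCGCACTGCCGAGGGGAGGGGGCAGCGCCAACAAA
Col4a2: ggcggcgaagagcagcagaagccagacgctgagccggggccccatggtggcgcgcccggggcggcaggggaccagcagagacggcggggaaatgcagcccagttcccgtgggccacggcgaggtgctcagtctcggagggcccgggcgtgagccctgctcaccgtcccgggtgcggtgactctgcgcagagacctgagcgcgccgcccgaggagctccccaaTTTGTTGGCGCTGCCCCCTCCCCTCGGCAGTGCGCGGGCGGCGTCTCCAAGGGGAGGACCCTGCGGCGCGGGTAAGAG
A matching stretch of letters is a description of the window and no measure of binding.

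Over all genes compared, the colonies were higher in 680 (22.4%) and lower in 542 (17.9%), and the other 1813 lay within the fold. The median difference was 0.10, with quartiles of -0.74 and 0.86. The colonies were 1 or more above all 3 gene-span ESC libraries in 603 genes (19.9%) and 1 or more below all 3 in 286 genes (9.42%). The difference was 4 or more in 46 genes and -4 or less in 11. With each library scaled to the same summed RPKM, the split was 458 higher and 555 lower. The filter bears on every list that follows. A gene near 0 in one of the libraries could be compared only if it was high in the other, so its direction was set by the filter, and counts and medians over the members compared are descriptions and no support for a direction. The members left under 5 RPKM are counted beside each list. Each list's counts are to be read beside the 22.4% higher and 17.9% lower over all genes compared. The plot of all compared genes shows the named markers far from the diagonal on both sides.

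**Figure D1:**
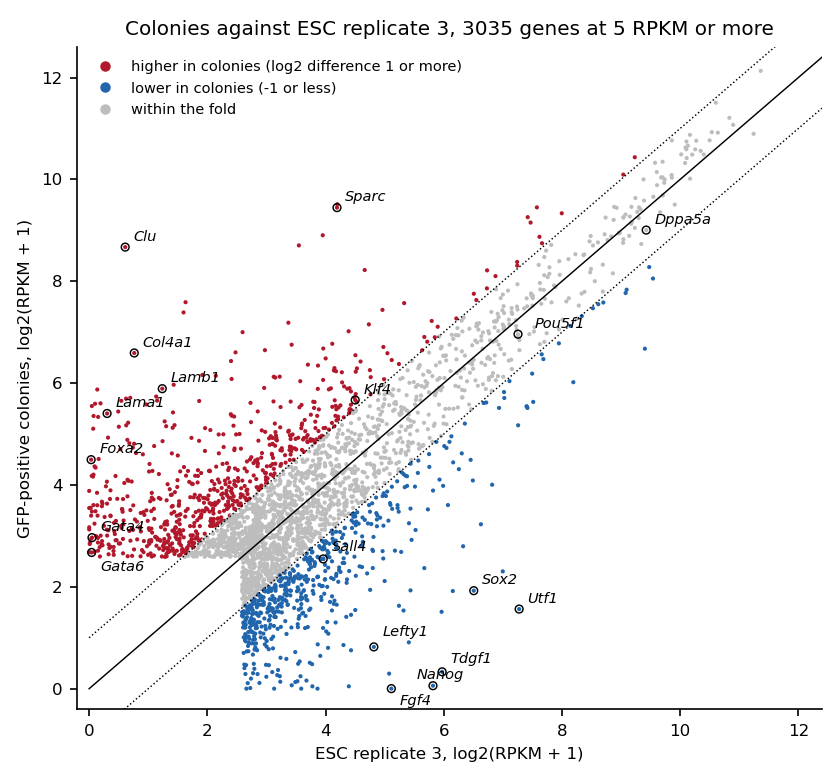
Each point is 1 of 3035 genes, with log2(RPKM + 1) in ESC replicate 3 on the horizontal axis and in the GFP-positive colonies on the vertical axis (1 library each). The solid line marks equal values and the dotted lines a difference of 1, with 680 genes above and 542 below. Clu, Lama1 and Foxa2 stand at the upper left, Nanog, Fgf4 and Tdgf1 at the lower right, and Pou5f1 and Dppa5a near the diagonal.

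The colonies carried Pou5f1 RNA at an ESC level while Nanog, Fgf4 and Tdgf1 were near the bottom of the scale. Pou5f1, the factor whose reporter marks the colonies, had 124 RPKM in the colonies, against 152 RPKM in ESC replicate 3 and 86.1 and 95.6 RPKM in ESC replicates 1 and 2. The colonies were inside the ESC range, with a difference of -0.30. MEF, GFP-negative and cluster libraries had at most 0.429 RPKM, so the colonies were the only library other than ESC and CiPSC with Pou5f1 above 1 RPKM. Dppa5a, an RNA-binding protein gene abundant in ESC and named here after its value was seen, had 513 RPKM in the colonies, against 687 RPKM in ESC replicate 3 and 691 and 552 RPKM in ESC replicates 1 and 2.

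Nanog, a homeodomain factor that stabilises naive pluripotency, had 0.0418 RPKM in the colonies, which is about 3 reads. ESC replicate 3 had 55.4 RPKM and ESC replicates 1 and 2 had 52.5 and 51.7 RPKM. The colonies lay just under the MEF, GFP-negative and cluster libraries (0.0436 to 0.141 RPKM), and the difference was -5.76. Fgf4, the fibroblast growth factor secreted by ESC, was listed at the fill value in the colonies, against 33.6 RPKM in ESC replicate 3 and 53.3 and 41.2 RPKM in ESC replicates 1 and 2. Tdgf1 (Cripto), the co-receptor of Nodal, had 0.258 RPKM in the colonies, against 61.8 RPKM in ESC replicate 3 and 55.4 and 53.6 RPKM in ESC replicates 1 and 2. For each of these genes the 3 ESC libraries stood close together and the colonies far below.

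Sox2 and Sall4 were in between. Sox2, the partner of Oct4 at many of its targets, had 2.8 RPKM in the colonies, against 90 RPKM in ESC replicate 3 and 105 and 93.6 RPKM in ESC replicates 1 and 2 (difference -4.58). MEF libraries had 0.24 to 2.09 RPKM of Sox2, all under the colonies, with MEF replicate 2 the nearest. Sall4, a zinc-finger factor active in both ESC and primitive endoderm, had 4.85 RPKM in the colonies, against 14.6 RPKM in ESC replicate 3 and 13.6 and 15.4 RPKM in ESC replicates 1 and 2 (difference -1.41). Sall4 was at or below 0.0296 RPKM in MEF, GFP-negative and cluster libraries, so its level in the colonies was well above all of them.

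Among 17 core pluripotency factors compared, 11 were lower and 3 higher in the colonies, with a median difference of -1.83 against 0.10 over all genes, and another 13 listed factors were under the filter. Lower members beside Nanog and Sox2 were Utf1, a chromatin-bound factor of ESC (1.96 RPKM in the colonies and 154 RPKM in ESC replicate 3, difference -5.71), and Rex2 (0.228 RPKM in the colonies and 32.7 RPKM in ESC replicate 3, difference -4.78). Klf2, a Kruppel-like factor of naive cells, had 1.9 RPKM in the colonies, against 38.9 RPKM in ESC replicate 3 and 29.5 and 49.2 RPKM in ESC replicates 1 and 2. It was also below all MEF libraries (9.93 to 22.6 RPKM) and the clusters (25.5 RPKM). The 3 higher members, named after their values were seen, were Klf5 (difference 1.46), Tcl1 (1.20) and Klf4 (1.17). Klf4 had 49.9 RPKM in the colonies, against 21.7 RPKM in ESC replicate 3 and 9.02 and 2.42 RPKM in ESC replicates 1 and 2. With equal summed RPKM, 1 of these 3 stayed past the fold (Klf5). The Kruppel-like factors therefore did not move as a group, with Klf2 below and Klf4 and Klf5 above all 3 gene-span ESC libraries.

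Of the 22 pluripotency-associated markers compared, 16 were lower and 1, Cd9, was higher (median -1.94), with another 11 under the filter. Trh, which encodes thyrotropin-releasing hormone, was listed at the fill value in the colonies, against 13.6 RPKM in ESC replicate 3 and 95.7 and 91.7 RPKM in ESC replicates 1 and 2. Zfp57, which protects imprinted marks, had 0.812 RPKM in the colonies, against 18.7 RPKM in ESC replicate 3 and 36.6 and 37.3 RPKM in ESC replicates 1 and 2. Both lists held genes of the definition of ESC, so their direction is a description of how far the colonies were from ESC and not a separate result.

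In the Nodal pathway, 6 of the 8 members compared were lower and 2 higher (median -3.18), with another 11 under the filter. The lower ones were 75% of the 8, beside 17.9% over all genes. All 6 lower members were under 5 RPKM in the colonies and were compared only through ESC replicate 3. The 2 higher ones were compared only through the colonies, so the direction of all 8 was set by the filter. Nodal, the ligand, was listed at the fill value in the colonies, against 7.76 RPKM in ESC replicate 3 and 10.2 and 9.62 RPKM in ESC replicates 1 and 2. Its feedback antagonists were lower too. Lefty1 had 0.766 RPKM in the colonies, against 27.2 RPKM in ESC replicate 3 and 29.1 and 34.8 RPKM in ESC replicates 1 and 2. Lefty2 had 0.0332 RPKM in the colonies, about 2 reads, against 20 RPKM in ESC replicate 3 and 49 and 50.4 RPKM in ESC replicates 1 and 2 (difference -4.35). The co-receptor Tdgf1, the related ligand Gdf3 (difference -3.24) and the nuclear effector Foxh1 (difference -2.30) completed the lower members. The higher members were Fst, which encodes the activin antagonist follistatin (25.6 RPKM in the colonies and 0.671 RPKM in ESC replicate 3), and Furin, which encodes a protease that processes such ligands (10.3 RPKM in the colonies and 2.62 RPKM in ESC replicate 3).

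**Figure D2:**
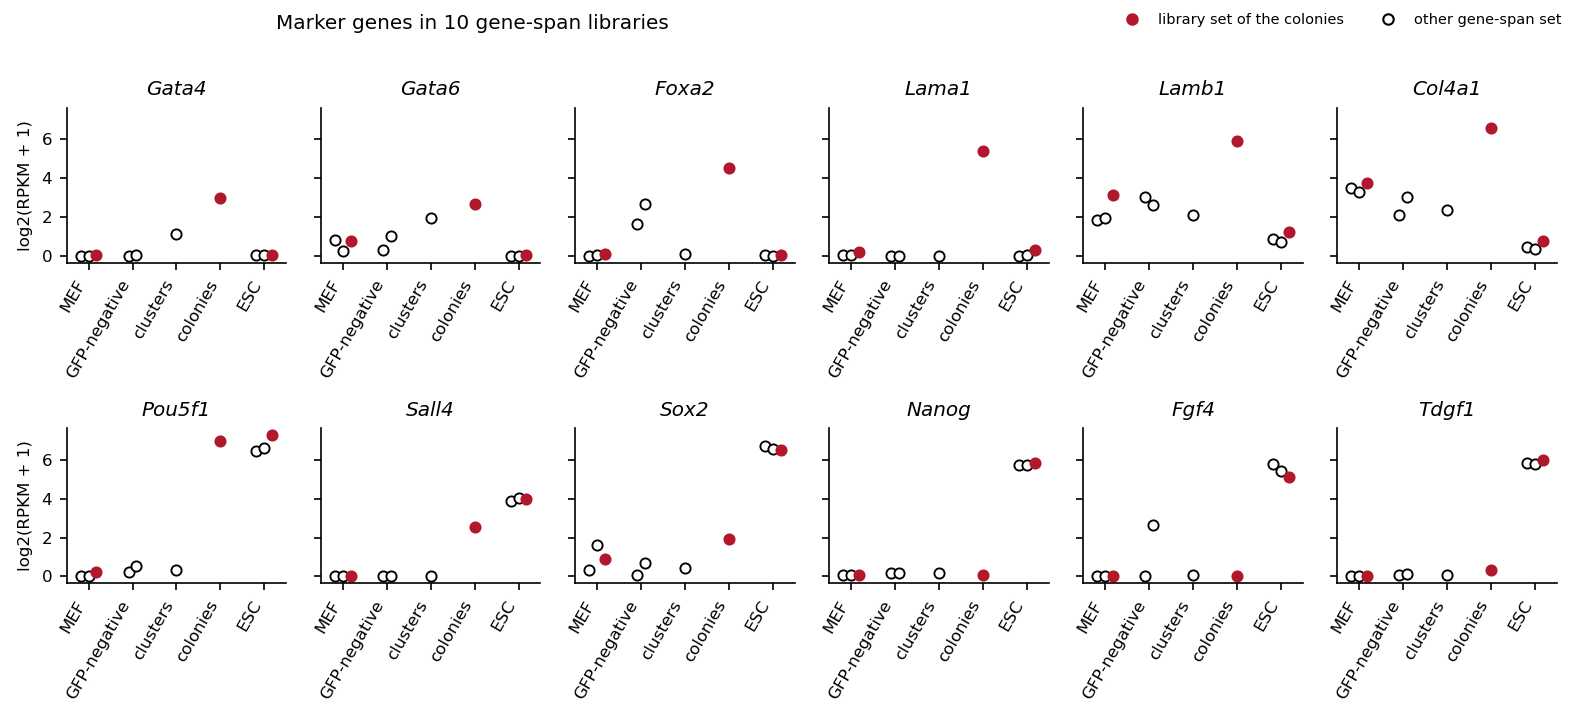
Log2(RPKM + 1) of 12 genes in the 10 gene-span libraries, 1 point per library, with filled points for the column set of the colonies. The order is MEF, GFP-negative cells, clusters, colonies and ESC. The upper row holds endoderm and basement membrane genes, for which the colonies stand above every other library. The lower row holds pluripotency genes, from Pou5f1 inside the ESC range to Nanog, Fgf4 and Tdgf1 near 0 in the colonies.

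The primitive endoderm factors Gata4, Gata6 and Foxa2 were higher in the colonies and close to silent in ESC. Gata4, a zinc-finger factor of primitive endoderm and heart, had 6.82 RPKM in the colonies, against 0.0343 RPKM in ESC replicate 3 and 0.0227 and 0.0431 RPKM in ESC replicates 1 and 2 (difference 2.92). Gata6, which acts at the head of the primitive endoderm programme, had 5.39 RPKM in the colonies, against 0.0301 RPKM in ESC replicate 3 and at most 0.00748 RPKM in ESC replicates 1 and 2 (difference 2.63). The clusters already had 1.14 RPKM of Gata4 and 2.9 RPKM of Gata6, above all MEF and ESC libraries. Foxa2, a forkhead factor of endoderm, had 21.6 RPKM in the colonies, against 0.0239 RPKM (about 1 read) in ESC replicate 3, 0.018 RPKM in ESC replicate 1 and 0 in ESC replicate 2 (difference 4.46). Foxa2 was higher in the GFP-negative cells (2.08 and 5.25 RPKM) than in the clusters (0.0538 RPKM).

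Of the 17 primitive endoderm transcription factors in the table, 10 were under 5 RPKM in both libraries, 6 were higher and 1, Sall4, was lower. The 6 had at most 1.1 RPKM in ESC replicate 3 and were compared only because they were high in the colonies, so their direction was fixed by the filter. Sall4 was compared only through its level in ESC. Foxq1, another forkhead factor, had 47.6 RPKM in the colonies, against 0.142 RPKM in ESC replicate 3 and 0 in ESC replicates 1 and 2 (difference 5.41). Cited1, a transcriptional co-activator, had 27.3 RPKM in the colonies and 0.603 RPKM in ESC replicate 3, and Snai1, a repressor of epithelial genes, had 18.4 RPKM in the colonies and 1.1 RPKM in ESC replicate 3. Snai1 was also present in MEF (7.81 to 13.1 RPKM), whereas Foxq1 and Cited1 were at or below 0.26 RPKM there.

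The basement membrane chains Lama1, Lamb1, Lamc1, Col4a1 and Col4a2 were higher in the colonies than in any other gene-span library. Lama1, the laminin chain of embryonic basement membranes, had 41.3 RPKM in the colonies, against 0.235 RPKM in ESC replicate 3 and 0.0066 and 0.00922 RPKM in ESC replicates 1 and 2 (difference 5.10). Its partner Lamb1 had 58.3 RPKM in the colonies, against 1.36 RPKM in ESC replicate 3 and 0.823 and 0.631 RPKM in ESC replicates 1 and 2 (difference 4.65). Lamc1, the third chain of the same trimer, had 33.7 RPKM in the colonies, against 2.9 RPKM in ESC replicate 3 and 1.98 and 2.33 RPKM in ESC replicates 1 and 2 (difference 3.15). Lama1 was at or below 0.133 RPKM in every MEF, GFP-negative and cluster library, while Lamb1 and Lamc1 had 2.5 to 7.66 RPKM there. In the other gene-span libraries, none of the 3 chains was above 7.66 RPKM.

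Col4a1 and Col4a2, the head-to-head pair printed above, encode the chains of the main collagen IV trimer. Col4a1 had 95.5 RPKM in the colonies, against 0.698 RPKM in ESC replicate 3 and 0.377 and 0.289 RPKM in ESC replicates 1 and 2 (difference 5.83). Col4a2 had 42.5 RPKM in the colonies, against 0.407 RPKM in ESC replicate 3 and 0.134 RPKM in each of ESC replicates 1 and 2 (difference 4.95). In MEF the pair was already present, at 8.83 to 12.1 RPKM for Col4a1 and 4.74 to 8.58 RPKM for Col4a2. Sparc, a collagen-binding matrix protein, had 697 RPKM in the colonies, against 17.3 RPKM in ESC replicate 3 and 5.04 and 4.8 RPKM in ESC replicates 1 and 2 (difference 5.25).

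Of the 29 basement membrane genes in the table, 13 were under the filter, 13 were higher and 2 lower, and the 13 higher ones were 1 or more above all 3 gene-span ESC libraries. The median over the 16 compared was 3.15. Of these 16, 81.2% were higher and 12.5% lower, beside 22.4% and 17.9% over all genes compared. Enzymes that modify and fold collagen were among the higher ones. P4ha2, a collagen prolyl hydroxylase, had 34.4 RPKM in the colonies and 0.417 RPKM in ESC replicate 3, and Serpinh1, the collagen chaperone Hsp47, had 478 RPKM in the colonies and 14.5 RPKM in ESC replicate 3. Serpinh1 was also high in MEF (143 to 371 RPKM). The lower members were Lama5 (difference -2.04) and Agrn (-1.71), a laminin chain and a proteoglycan made by ESC. Lama5 had 0.714 RPKM in the colonies, against 6.04 RPKM in ESC replicate 3 and 1.05 and 4.53 RPKM in ESC replicates 1 and 2, so ESC replicate 1 came near the colonies. The nidogens, which link laminin to collagen IV, had low values and opposite signs. Nid1 had 4.22 RPKM in the colonies and 1.21 RPKM in ESC replicate 3, and Nid2 had 1.2 RPKM in the colonies and 4.06 RPKM in ESC replicate 3, both under the limit for comparison.

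Of 29 endoderm surface and trafficking genes in the table, 15 were under the filter, 12 were higher and 0 lower. The higher ones were 85.7% of those compared, beside 22.4% over all genes. Srgn, a proteoglycan core protein, had 45.9 RPKM in the colonies, against 0.0326 RPKM in ESC replicate 3 and 0.112 and 0.106 RPKM in ESC replicates 1 and 2 (difference 5.50). Pth1r, the receptor for parathyroid hormone-related protein in parietal endoderm, had 39.4 RPKM in the colonies and 0.111 RPKM in ESC replicate 3 (difference 5.18). Krt8 and Krt18, keratins of simple epithelia, had 30.8 and 34.1 RPKM in the colonies, against 3.57 and 8.4 RPKM in ESC replicate 3. Pdgfra, a receptor tyrosine kinase of primitive endoderm that fibroblasts also carry, had 8.45 RPKM in the colonies, against 0.0652 RPKM in ESC replicate 3. MEF had 6.17 to 7.21 RPKM of Pdgfra and the clusters 21.6 RPKM, so the colonies were close to the fibroblasts for this gene.

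Among 15 secreted proteins listed for visceral endoderm in the table, 8 were under the filter, 6 were higher and 1, Lefty1, was lower. Of the 6, Cyp26a1, Ihh, Dkk1, Apoa1 and Apom had at most 0.286 RPKM in ESC replicate 3 and were compared only through their level in the colonies. Cyp26a1, which degrades retinoic acid, had 39.9 RPKM in the colonies, against 0.0536 RPKM in ESC replicate 3 and 0.0202 and 0 RPKM in ESC replicates 1 and 2. Ihh, a hedgehog ligand, had 17.1 RPKM in the colonies and 0.0314 RPKM in ESC replicate 3. Dkk1, a Wnt antagonist, had 19.3 RPKM in the colonies and 0.0787 RPKM in ESC replicate 3, and Apoa1, an apolipoprotein, had 17.4 RPKM in the colonies and 0.0529 RPKM in ESC replicate 3. Cyp26a1, Ihh, Dkk1 and Apoa1 were at or below 0.547 RPKM in all MEF, GFP-negative and cluster libraries. Apoe, another apolipoprotein, had 332 RPKM in the colonies and 150 RPKM in ESC replicate 3, but MEF replicate 3 had 321 RPKM while MEF replicates 1 and 2 had 22.6 and 23.7 RPKM.

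The markers listed for each cell type were summed to describe the colonies beside their label. The 9 primitive endoderm markers in the table were all higher. All but Sparc had at most 1.36 RPKM in ESC replicate 3 and were compared only through the colonies. Their direction was therefore fixed by the filter and is no check of the label. The summed level of the 9 was 977 RPKM in the colonies, against 20.2 RPKM in ESC replicate 3 and 6.69 and 6.15 RPKM in ESC replicates 1 and 2. The sum in MEF libraries was 192 to 265 RPKM. Most of the sum was Sparc, with 697 RPKM in the colonies and 167 to 230 RPKM in MEF. The 9 pluripotent markers summed to 648 RPKM in the colonies, against 1101 RPKM in ESC replicate 3 and 1088 and 936 RPKM in ESC replicates 1 and 2. Pou5f1 and Dppa5a made up nearly all of the sum in the colonies, and 4 of the 9 were under 1 RPKM there. The label of the colonies states only that they are Oct4-GFP-positive, and Pou5f1 RNA was at an ESC level in them. In a picked bulk sample, fewer cells of a type and less RNA per cell cannot be told apart, so a mixture of cells with and without these genes and an intermediate state of all cells give the same values.

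Markers of other cell types were measured beside these. The 7 fibroblast markers in the table summed to 45.8 RPKM in the colonies, against 25.3 RPKM in ESC replicate 3, 11 and 17.2 RPKM in ESC replicates 1 and 2 and 680 to 2653 RPKM in MEF. Col1a1, a fibrillar collagen chain, had 25.6 RPKM in the colonies, 16.1 RPKM in ESC replicate 3, 5.32 and 11.9 RPKM in ESC replicates 1 and 2 and 1824 RPKM in MEF replicate 3. Of the 3 summed markers that passed the filter, 1 was higher than in ESC replicate 3 and 0 lower. The higher marker was Col3a1, with 6.32 RPKM in the colonies, 1.5 RPKM in ESC replicate 3 and 59.7 to 269 RPKM in MEF. Tagln, a smooth muscle and fibroblast actin-binding protein outside the summed markers, went the other way. It had 1.3 RPKM in the colonies, 9.73 RPKM in ESC replicate 3 and 57.3 to 241 RPKM in MEF. The macrophage and blood markers summed to 21.1 RPKM in the colonies and 10.9 RPKM in ESC replicate 3, against 198 RPKM in MEF replicate 3. The trophoblast markers summed to 0.74 RPKM in the colonies, against 13.1 RPKM in ESC replicate 3 and 3.64 and 3.29 RPKM in ESC replicates 1 and 2. Tcfap2c alone had 12.7 RPKM in ESC replicate 3, nearly all of the sum there. The endothelial markers summed to 6.01 RPKM in the colonies and 0.0563 RPKM in ESC replicate 3. Nearly all of that was Cdh5, the vascular cadherin, with 5.42 RPKM in the colonies and 0.00233 RPKM in ESC replicate 3. The part of carried-over cells in any difference was not tested.

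The colonies were set against MEF replicate 3 of the same set to see which of the differences from ESC were also differences from the starting cells. Of the 680 genes higher than in ESC, 326 (47.9%) were also 1 or more above MEF replicate 3, 318 (46.8%) were within 1 of it and 36 (5.29%) were 1 or more below it. The 326 genes above both were 10.7% of all genes compared, and 63 (2.08%) were below both. Of the 542 genes lower than in ESC, 439 (81%) were within 1 of MEF replicate 3. Because these counts use the colony library on both sides, they describe its place between fibroblasts and ESC and are not 2 separate results. The share within 1 of MEF replicate 3 was not counted over all genes compared. The 46.8% and 81% therefore have no background and are no measure of likeness to fibroblasts.

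Clu, which encodes the secreted chaperone clusterin, had the largest difference of the named genes (8.06). It had 407 RPKM in the colonies, against 0.527 RPKM in ESC replicate 3 and 0.0575 and 0.0695 RPKM in ESC replicates 1 and 2. MEF had 1.7 to 6.24 RPKM, GFP-negative cells 6.61 and 12.1 RPKM and the clusters 75.9 RPKM, so Clu was highest in the colonies and next highest in the clusters. Other genes far above both fibroblasts and ESC differed in where else they were found. Dpcr1 had 57.7 RPKM in the colonies, 0.1 RPKM in ESC replicate 3 and at most 0.212 RPKM in MEF, GFP-negative and cluster libraries. Pgc, which encodes the precursor of a gastric protease, had 29.5 RPKM in the colonies, 0.248 RPKM in ESC replicate 3 and 0 or the fill value in MEF, GFP-negative and cluster libraries. Wfdc12, a small secreted protease inhibitor, had 47.4 RPKM in the colonies, 0.0724 RPKM in ESC replicate 3 and 7.49 RPKM in the clusters.

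H19, an imprinted noncoding RNA, and Ly6a (Sca-1), a surface protein of fibroblasts and progenitors, belonged to the genes that were above ESC and present in MEF. H19 had 145 RPKM in the colonies, against 9.35 RPKM in ESC replicate 3 and 1.41 and 0.758 RPKM in ESC replicates 1 and 2, but 1343 to 3649 RPKM in MEF. Ly6a had 192 RPKM in the colonies, against 2.1 RPKM in ESC replicate 3 and 84.8 to 169 RPKM in MEF. H19 lay between the fibroblast and ESC libraries and Ly6a above both, and the part of carried-over fibroblasts in these values was not tested.

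**Figure D3:**
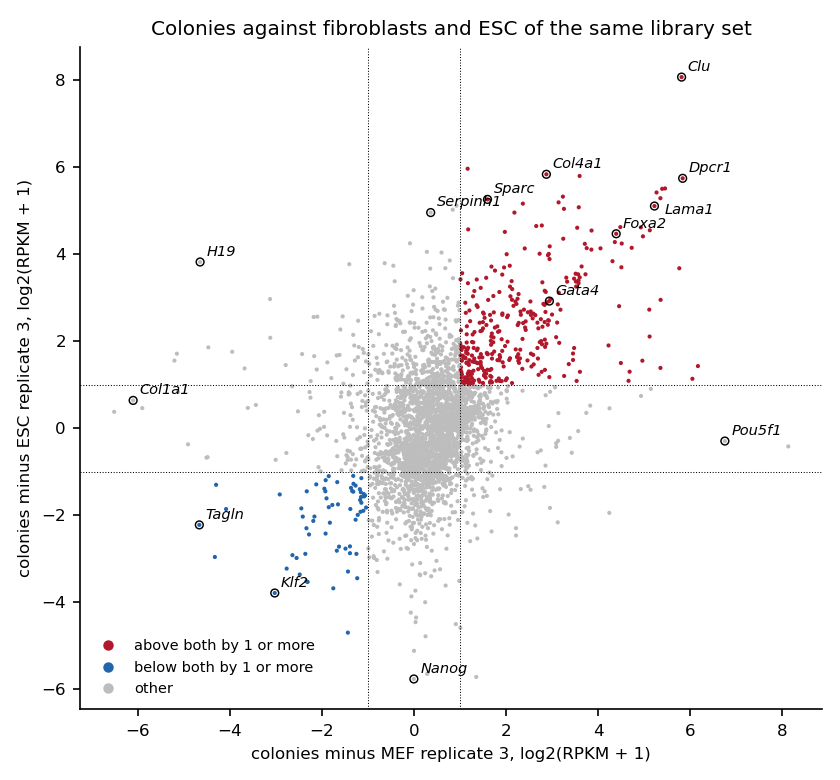
Each point is 1 of 3035 genes, with the difference of log2(RPKM + 1) between the colonies and MEF replicate 3 on the horizontal axis and between the colonies and ESC replicate 3 on the vertical axis. Dotted lines mark differences of 1 and -1. The 326 genes at the upper right include Clu, Dpcr1, Lama1 and Foxa2, the 63 genes at the lower left include Klf2 and Tagln, and Nanog lies at the bottom with no difference from fibroblasts.

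Of 24 lysosomal genes in the table, 7 were under the filter, 16 were higher in the colonies and 0 lower, with a median of 2.24 over the 17 compared. The higher ones were 94.1% of the 17, beside 22.4% over all genes. Ctsl, which encodes the protease cathepsin L, had 730 RPKM in the colonies, against 17.4 RPKM in ESC replicate 3 and 19.7 and 12.8 RPKM in ESC replicates 1 and 2 (difference 5.32). Ctsh, another cathepsin, had 21.8 RPKM in the colonies and 0.118 RPKM in ESC replicate 3. Hexa, a subunit of hexosaminidase, had 18.3 RPKM in the colonies and 1.91 RPKM in ESC replicate 3. Only 4 of the 17 were also 1 or more above MEF replicate 3, and GFP-negative cells and clusters had 264 to 383 RPKM of Ctsl. The member within the fold was Man2b1, with 6.56 RPKM in the colonies, 3.31 RPKM in ESC replicate 3 and 7.75 RPKM in ESC replicate 2.

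Of 36 cell cycle genes in the table, 10 were under the filter, 24 were lower in the colonies and 0 higher, with a median of -1.75 over the 26 compared. The lower ones were 92.3% of the 26, beside 17.9% over all genes. Ccne1, the cyclin of S phase entry, had 1.12 RPKM in the colonies, against 15.5 RPKM in ESC replicate 3 and 10.4 RPKM in each of ESC replicates 1 and 2 (difference -2.97). Top2a, a topoisomerase of dividing cells, had 2.14 RPKM in the colonies, against 17.2 RPKM in ESC replicate 3 and 16.5 and 13.5 RPKM in ESC replicates 1 and 2. Mki67, the proliferation marker Ki-67, had 1.51 RPKM in the colonies and 8.98 RPKM in ESC replicate 3, with MEF at 4.85 to 11.4 RPKM. The members within the fold were Cdk2 (difference 0.61) and Cdk4 (-0.03). In 18 of the 26 the colonies were 1 or more below all 3 gene-span ESC libraries. Long genes were lower as a class. In 5 equal classes of gene span, from short to long, the median over all genes was 0.31, 0.32, 0.06, -0.31 and -0.52, and the share lower was 10.8% in the shortest class and 32.2% in the longest. The cell cycle genes had medians of -1.26, -1.75, -1.76 and -1.89 in the 4 classes that held any, each below the median of all genes in that class.

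Of 18 DNA methylation genes in the table, 10 were under the filter, 5 were lower and 1 higher, with a median of -1.85. With ESC replicate 1, ESC replicate 2 or the mean of all 3 as the ESC value, 4 were lower and the median was -0.57, -0.60 and -0.71. Gadd45b changed sign, with 3.44 RPKM in the colonies and 14.9 RPKM in ESC replicate 3 but 1.32 and 0.938 RPKM in ESC replicates 1 and 2. Tet1, an enzyme that oxidises 5-methylcytosine, had 0.0818 RPKM in the colonies, against 6.37 RPKM in ESC replicate 3 and 8.62 and 9.94 RPKM in ESC replicates 1 and 2. Uhrf1, which brings Dnmt1 to replicated DNA, had 1.9 RPKM in the colonies and 16.2 RPKM in ESC replicate 3, and Dnmt3b, a methyltransferase that sets new marks, had 0.915 RPKM in the colonies and 7.03 RPKM in ESC replicate 3. Dnmt1, the maintenance methyltransferase, had 1.12 RPKM in the colonies and 6.72 RPKM in ESC replicate 3. Gadd45g, a stress-induced gene on the list, was the higher member (16.6 RPKM in the colonies and 4.74 RPKM in ESC replicate 3). Of 33 polycomb and histone modifier genes in the table, 28 were under the filter, 3 were lower (Phc1, Suz12 and Hdac1) and 0 higher, with Phc1, a polycomb subunit, at 0.828 RPKM in the colonies and 13.6 RPKM in ESC replicate 3. With the other ESC values, 2 were lower and 1 higher.

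Of 25 interferon and antigen presentation genes in the table, 17 were under the filter, 4 were higher and 1, Ifitm2, was lower. With ESC replicate 1, ESC replicate 2 or the mean of all 3 as the ESC value, 6 were higher and 0 lower. B2m, the light chain of class I molecules, had 70.5 RPKM in the colonies, against 2.77 RPKM in ESC replicate 3 and 3.66 and 4.38 RPKM in ESC replicates 1 and 2 (difference 4.24). MEF had 75 to 104 RPKM of B2m, so the colonies were close to fibroblasts here. Psmb9, an immunoproteasome subunit, had 8.18 RPKM in the colonies, against 0.19 RPKM in ESC replicate 3 and at most 1.1 RPKM in MEF. Tapbp, which loads class I molecules, was within the fold (difference 0.59). The heavy chain genes H2-D1 and H2-K1 were among the higher ones (differences 4.03 and 2.43). They are related genes that differ between strains, so the assignment of reads to them may be uncertain in C57xICR and 129 cells.

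Of 24 chaperone and heat shock genes in the table, 6 were under the filter, 6 were higher and 6 lower, with a median of -0.19. Each direction held 33.3% of those compared, beside 22.4% higher and 17.9% lower over all genes. The higher members were Cryab, Ddit3, Pdia3, Calr, Pdia6 and Hspa5. Calr is a folding factor of the endoplasmic reticulum. Calr had 296 RPKM in the colonies, against 105 RPKM in ESC replicate 3 and 76.2 and 81.2 RPKM in ESC replicates 1 and 2. The lower members were Hspb1, Hsp90aa1, Hsp90ab1, Hspa9, Hspa8 and Hspd1. Hsp90aa1, a cytosolic chaperone, had 44.7 RPKM in the colonies, against 170 RPKM in ESC replicate 3 and 164 and 156 RPKM in ESC replicates 1 and 2. Hspb1 had 35.1 RPKM in the colonies and 152 RPKM in ESC replicate 3 but 28.8 RPKM in ESC replicate 1, so its direction depended on the ESC library.

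Housekeeping groups lay near 0 within the column set. Of 30 cytosolic ribosomal protein genes, 29 were within the fold and 1, Rps2, was lower (median 0.15, and -0.06 with the summed RPKM made equal). With ESC replicates 1 and 2 of the other set as the ESC value, 15 and 16 of the 30 were higher. Rps2 had 64.8 RPKM in the colonies and 137 RPKM in ESC replicate 3, but 39.4 and 38.7 RPKM in ESC replicates 1 and 2. Of 26 respiratory chain genes compared, 2 (Ndufa1 and Cox6a1) were higher and 0 lower (median 0.25), with another 5 under the filter. With ESC replicates 1 and 2 as the ESC value, 13 and 12 of these were higher, and with the mean of all 3, 10 were higher with a median of 0.73. Of 15 glycolysis genes compared, 1 was higher and 3 lower (median -0.29), with another 9 under the filter. These were 6.67% and 20% of the 15, beside 22.4% higher and 17.9% lower over all genes. Gapdh, a glycolytic enzyme, had 77 RPKM in the colonies, against 80.3 RPKM in ESC replicate 3 and 62.7 and 56.9 RPKM in ESC replicates 1 and 2. Ribosomal protein genes have many processed copies in the genome, and reads can be split among them.

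The finished lines were set beside the colonies. Relative to ESC replicate 4, the mean of CiPSC lines 6 and 11 was 1 or more higher in 9 (1.32%) and lower in 20 (2.94%) of the 680 genes that were higher in the colonies, with a median of -0.02. For the 542 genes lower in the colonies, 11 (2.03%) were higher and 6 (1.11%) lower in the lines, with a median of 0.01. Over all 4853 genes compared between the lines and ESC replicate 4, 0.989% were higher and 1.32% lower. Unlike the 4853 genes, the 680 and 542 genes were not held to 5 RPKM in the lines or ESC replicate 4, so the sets differ. The share of the 680 genes that was lower in the lines (20 genes) and the share of the 542 that was higher (11 genes) were above those backgrounds. Given the unlike sets, this is no support for an excess. Nanog had 112 and 98.5 RPKM in CiPSC lines 6 and 11, against 87.8 RPKM in ESC replicate 4, on the exon scale. Foxa2 had 0.0138 and 0.0108 RPKM in lines 6 and 11, against 0.0257 RPKM in ESC replicate 4. Lefty2 was an exception, with 11.7 and 10.1 RPKM in lines 6 and 11, against 39.6 RPKM in ESC replicate 4.

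Values of the clusters were set beside those of the colonies. Of the 542 genes lower in the colonies, the clusters were 1 or more below both ESC replicates 1 and 2 in 332 (61.3%), where 32.7% of 3033 genes were lower in that comparison as a whole. Of the 680 genes higher in the colonies, the clusters were 1 or more above both in 239 (35.1%), against 28.2% of the genes in that comparison. The sets are unlike. All 542 genes had 5 RPKM or more in ESC replicate 3, whereas the 3033 could be kept by their level in the clusters alone. The 542 and 680 genes were also not passed through the filter of that comparison. The shares are therefore descriptions and no support for an excess. The median of the clusters minus the mean of ESC replicates 1 and 2 was -1.58 over the 542 genes and 0.42 over the 680 genes. Lama1, Pth1r and Ihh illustrate genes high in the colonies but at 0 to 0.000894 RPKM in the clusters. These comparisons share no library with that of the colonies and ESC replicate 3, but the clusters belong to the other column set, so their values are set beside each other and not subtracted.

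**Figure D4:**
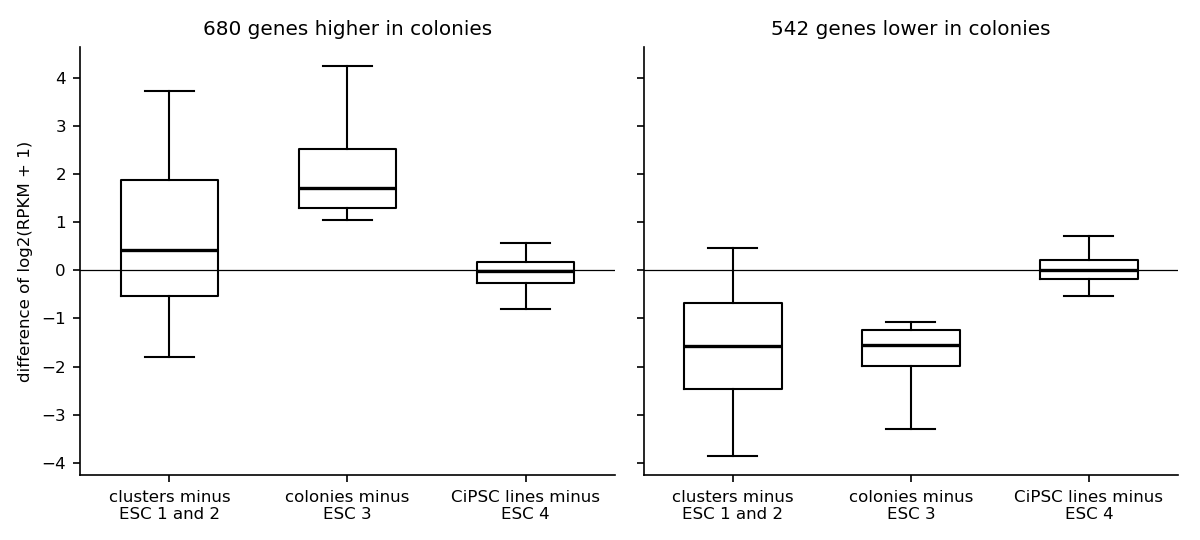
Differences of log2(RPKM + 1) for the 680 genes higher (left) and the 542 genes lower (right) in the colonies than in ESC replicate 3, in the clusters against the mean of ESC replicates 1 and 2, the colonies against ESC replicate 3, and the mean of both CiPSC lines against ESC replicate 4. Boxes give quartiles with the median as a line and whiskers the 5th to 95th percentile over genes. Genes were chosen on the middle box, so it shows only their size, and the medians of the CiPSC lines are -0.02 and 0.01.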

How the data were processed

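RNA sequencing of total RNA from 13 mouse libraries had been reduced by the authors to 1 deposited table with an RPKM column for each library. Per the submitters' processing notes, TopHat 1.3.0 and the build mm9 were used. How reads were counted, with which annotation and whether by strand is not given in the sources used here. Of 15184 rows, the 8 that shared 1 symbol were left out. Columns were matched to libraries by name, 0 columns were unused and 0 pairs were identical.

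Gene spans from GENCODE M21 (GRCm38), used for lengths only, were found for 2729 (89.9%) of the genes compared. RPKM multiplied by span came out whole within 0.05 reads for 81.7 to 83.8% of values below 8.5 reads in the 10 gene-span libraries, which gave the depths, and for 12.5 to 13.2% in the 3 exon-scaled libraries, whose depth is unknown. Since mm9 and GRCm38 spans differ for some genes, these are estimates, and the RPKM values remained the main data.

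Values were used as log2(RPKM + 1) with no scaling, by Python 3.11.15, pandas 2.3.3 and numpy 2.4.6, and a fold of 1 was called without a test. The calling step was tested on simulated data. Named genes were the marker genes and 4 factors (Pou5f1, Sox2, Sall4 and Gata6), the 15 largest rises and 15 largest falls at 10 RPKM or more that lay outside the ESC range by 1, up to 6 members per list with the largest differences, added basement membrane and Nodal genes, and the 10 genes furthest above both MEF replicate 3 and ESC replicate 3. Of 972 listed symbols in 42 lists, 854 were in the table, 10 of them through a RefSeq synonym. Members and lists were chosen with earlier results of these data known, and genes outside the rule were named after their values were seen. Alternatives changed the pseudocount, filter, scaling and ESC library.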

Additional observations from a re-analysis of the deposited data

How the results depend on the processing

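The reported counts were 680 genes higher and 542 lower than ESC replicate 3, 603 above and 286 below all 3 gene-span ESC libraries, and 326 above and 63 below both MEF replicate 3 and ESC replicate 3. A pseudocount of 5 gave 428, 246, 385, 115, 200 and 22. A filter at 1 RPKM, and likewise no filter, gave 1062 higher, 1040 lower, 905 above and 515 below all 3 ESC libraries, and 129 below both. A filter at 10 RPKM gave 302 lower, 162 below all 3 ESC libraries and 37 below both. With equal summed RPKM there were 458 higher and 555 lower, 335 above all 3 ESC libraries, 178 above both and 103 below both. Scaling by median ratios gave 710 higher and 374 lower. With ESC replicate 1, ESC replicate 2 or the mean of all 3 as the ESC value, 1327, 1331 and 1154 genes were higher, beside the median shift of 0.57 and 0.58 between the sets. Leaving out each ESC library in turn gave 631 to 1164 genes above and 327 to 341 below the rest, and the highest count, 1164, came without ESC replicate 3. The next alternatives were chosen after seeing the data. Subtracting the median of each of 5 classes of gene span gave 606 higher and 452 lower. The gap to the lowest ESC library was centred on its own class median in the same way, which gave 679 genes. Those 679 are low relative to their class and need not lie below all 3 ESC libraries, so they cannot be set against the 286. For the counts against both, a pseudocount of 0.1 gave 96 below. The cause of the other changes was not tested.

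With other ESC values some named genes changed sign, the cause of which was not tested: Cyr61 (0.36 and 1.18 against ESC replicates 1 and 2, 0.08 against the mean), Gadd45b (0.94, 1.20 and 0.10), Rps2 (0.70, 0.73 and 0.12), Dppa3 (0.47 and 0.93), Spint1 (0.80 against ESC replicate 2) and Hspb1 (0.27 against ESC replicate 1). Olig2 had no difference from ESC replicates 1 and 2 (0.00 and 0.00). It was at the fill value of 0.001 in the colonies and at 0 in both, so it did not change direction. Of 169 named genes past the fold, 139 stayed past it in the same direction with a pseudocount of 5, 166 and 164 under the scalings, and 149, 146 and 152 with the other ESC values. No paired analysis was possible because the colonies have 1 library and no test was made. The colony library has no replicate, and values near the fill value rest on a few reads.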

Other observations

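Several smaller lists gave values outside the groups described. Rhox6 and Rhox9, X-linked homeobox genes of placenta and germ cells, had 34.9 and 40.1 RPKM in the colonies, against 4.44 and 4.33 RPKM in ESC replicate 3, at most 0.588 and 0.253 RPKM in ESC replicates 1 and 2 and at most 0.037 RPKM in MEF, GFP-negative and cluster libraries. They are close copies of each other, so the reads of each are uncertain. Of 4 two-cell-like genes compared, 0 were higher and 1, Gm4340, was lower, and the colonies were not empty of these genes. Zscan4c had 3.03 RPKM in the colonies, against 5.48 RPKM in ESC replicate 3 and 2.79 and 1.27 RPKM in ESC replicates 1 and 2, while MEF, GFP-negative and cluster libraries held 0 or the fill value. Zscan4c and Gm4340 also belong to families of close copies.

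Id1, a target of BMP signalling, had 68.9 RPKM in the colonies, against 8.35 RPKM in ESC replicate 3 and 2.59 and 0.427 RPKM in ESC replicates 1 and 2, and Id3 had 25.1 RPKM in the colonies, against 9.72 RPKM in ESC replicate 3. Fasn, the fatty acid synthase, had 3.33 RPKM in the colonies, against 31 RPKM in ESC replicate 3 and 12.7 RPKM in ESC replicate 1, whereas the desaturase Scd2 had 44.7 RPKM in the colonies, against 13 RPKM in ESC replicate 3 and 35.1 and 26.6 RPKM in ESC replicates 1 and 2. Trp53 had 3.29 RPKM in the colonies, against 17.6 RPKM in ESC replicate 3 and 23.1 and 14.9 RPKM in ESC replicates 1 and 2, and its target Cdkn1a had 11.4 RPKM in the colonies, against 17.8 RPKM in ESC replicate 3 and 18.4 and 10.7 RPKM in ESC replicates 1 and 2. Sfn, an epithelial 14-3-3 protein, had 2.78 RPKM in the colonies and 70.2 RPKM in ESC replicate 3, but 6.44 and 3.33 RPKM in ESC replicates 1 and 2, so its low value in the colonies rests on ESC replicate 3.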
